A study of Mus musculus with 12 samples.

Results

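The 47 genes described here encode the machinery of DNA replication in the mouse. They cover origin licensing (5 genes), the replicative helicase (12), polymerase and primase (7), the sliding clamp with its loader and lagging-strand enzymes (8), nucleotide supply (5), chromatin assembly with maintenance DNA methylation (5), E2F transcription factors (3) and the fork checkpoint (2). They were taken by symbol from a list drawn up with earlier results of these data known. All 47 were among the 37141 rows of the deposited count table, and 44 were among the 10780 genes with enough counts to be tested.

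The study asked whether YAP and TAZ, the transcriptional coactivators restrained by the Hippo pathway, matter when hepatocytes regenerate after acute injury. Polyadenylated RNA of 500000 sorted hepatocytes per library was read as tags near transcript 3' ends in 12 libraries, 3 in each of 4 groups. All mice carried floxed alleles of Yap and Taz on both chromosomes (Yapflox/flox; Tazflox/flox). Mice of the group Yap/Taz KO + CCl4 were given an AAV8 vector with Cre behind the hepatocyte TBG promoter through the tail vein (5e11 genome copies), and 3 weeks later carbon tetrachloride (CCl4) at 1 ml/kg in corn oil into the peritoneum, 48 h before collection. CCl4 is a toxin that kills the hepatocytes around central veins, which activate it. The group ctrl + CCl4 received the same CCl4 and kept both floxed genes. Yap/Taz KO mice received the vector but no CCl4, 3 weeks before collection, and ctrl mice are labelled with neither. The labels name no control vector and no vehicle injection, so each comparison includes any effect of the vector or the injection itself. Neither the age of the mice nor the gate of the sort is given. As nothing states that the 3 samples of a group are separate animals, p-values reflect the variation among these libraries, some of which may be technical.

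Replication starts at origins bound by the origin recognition complex, where CDC6 and CDT1 load the ring of MCM proteins before S phase. CDC45 and the GINS complex then turn that ring into the moving helicase, polymerase alpha with primase lays down primers, and polymerases delta and epsilon extend them on the clamp PCNA, while nucleotide enzymes, histone chaperones and DNA methylation follow the fork. Hepatocytes of the adult liver are mostly quiescent, hold these transcripts low, and express them when they enter S phase after loss of tissue, in large part through E2F factors bound at their promoters.

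The promoters of 6 of these genes are shown because they carry, or lack, an E2F-type motif, and because the values of these genes recur in what follows. Motifs were searched in windows from 250 bases before to 50 bases after each RefSeq transcription start (RefSeq, GRCm38.p6). The letters searched were TTTCCCGC, TTTCGCGC, TTTGCCGC and TTTGGCGC on both strands. Of the 38 genes of the list with a RefSeq entry, 17 held at least 1 match (44.7%), against 704 of 27025 genes in the table (2.6%) and 409 of 8588 tested genes with an entry (4.76%). A gene was counted if any of its listed starts held a match. In the list 5 genes had more than 1 start, and of these Mcm7, Lig1, Uhrf1 and Dnmt1 also had starts without a match. A plain CCAAT, on either strand, stood in 63.2% of the 38 promoters and in 42.7% of those of tested genes. Each line gives the 170 bases before the start, written 5′ to 3′ on the gene's own strand, with matches in capitals. These stretches lie at chr8:75109339-75109508 on the plus strand (Mcm5), chr1:128359706-128359875 on the minus strand (Mcm6), chr5:138171884-138172053 on the minus strand (Mcm7), chr11:98907981-98908150 on the plus strand (Cdc6), chrX:93632156-93632325 on the minus strand (Pola1) and chr2:5012792-5012961 on the minus strand (Mcm10).
Mcm5: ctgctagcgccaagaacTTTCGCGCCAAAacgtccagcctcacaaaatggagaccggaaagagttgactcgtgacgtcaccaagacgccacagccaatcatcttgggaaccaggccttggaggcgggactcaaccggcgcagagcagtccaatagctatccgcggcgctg
Mcm6: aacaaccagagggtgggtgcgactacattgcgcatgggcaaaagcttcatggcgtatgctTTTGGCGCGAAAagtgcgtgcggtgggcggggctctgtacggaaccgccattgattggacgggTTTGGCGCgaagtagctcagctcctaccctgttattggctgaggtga
Mcm7: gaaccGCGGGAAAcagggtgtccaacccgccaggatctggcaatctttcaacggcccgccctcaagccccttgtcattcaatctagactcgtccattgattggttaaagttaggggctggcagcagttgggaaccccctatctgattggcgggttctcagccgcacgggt
Cdc6: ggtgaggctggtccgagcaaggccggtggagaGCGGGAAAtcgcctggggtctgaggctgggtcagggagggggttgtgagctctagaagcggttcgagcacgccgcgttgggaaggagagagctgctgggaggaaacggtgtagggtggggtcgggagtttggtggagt
Pola1: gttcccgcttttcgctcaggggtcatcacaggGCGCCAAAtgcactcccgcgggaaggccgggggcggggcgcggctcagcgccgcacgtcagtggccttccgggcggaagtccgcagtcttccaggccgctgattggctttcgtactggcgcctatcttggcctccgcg
Mcm10: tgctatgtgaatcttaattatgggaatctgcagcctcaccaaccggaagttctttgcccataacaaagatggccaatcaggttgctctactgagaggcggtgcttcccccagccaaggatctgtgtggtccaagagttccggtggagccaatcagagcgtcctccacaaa
Counting back from the base just before the start as -1, Mcm5 held matches beginning at -153 and -149 that overlap, on opposite strands. Mcm6 held 3, an overlapping pair from -110 and -106 and another from -47. In the bases shown Mcm7 held 1 from -165, while Cdc6 and Pola1 each held 1 from -138. The full window of that Mcm7 start held 2 matches, 1 of them past the start and outside the bases shown. The Mcm7 stretch shown is that of the start with the most matches, and the other listed start of Mcm7 held 0 in its window. The stretch of Mcm10 held none of these letters. A match is a description of the letters and no evidence of binding.

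Total counts ranged from 1617761 to 3028951 per library. Yap1 read 14.2 to 14.8 CPM (counts scaled to equal library size by TMM) in Yap/Taz KO + CCl4, against 50.4 to 65.4 CPM in ctrl + CCl4, and 9.61 to 22.1 CPM in Yap/Taz KO, against 40.2 to 71.5 CPM in ctrl. Wwtr1, which encodes TAZ, read 19.8 to 25.1 CPM in Yap/Taz KO + CCl4, against 32.5 to 34.6 CPM in ctrl + CCl4, and 10.1 to 18.2 CPM in Yap/Taz KO, against 24.1 to 57.4 CPM in ctrl. All knockout libraries lay below all control libraries of the same treatment for both genes. The log2 fold change of Yap1 was -1.96 after CCl4 and -1.89 without it (edgeR adjusted p = 0.0994 and 0.101), and passed by DESeq2 (adjusted p = 6.91e-06 and 0.000274). That of Wwtr1 was -0.53 after CCl4 and -1.40 without it (edgeR adjusted p = 0.983 and 0.236). By DESeq2 Wwtr1 did not pass after CCl4 (adjusted p = 0.893) and passed without it (adjusted p = 0.0389). A 3' tag need not lie in the deleted exons, which the labels do not name, so these levels test the labels only as far as deletion lowers the transcript. The hepatocyte markers (Alb, Apoa1, Ttr, Serpina1a, Hnf4a, Cps1, Asgr1 and Tat) were present in every library. The library ctrl 1 stood apart from ctrl 2 and ctrl 3 in markers of other cells. Its summed macrophage and Kupffer cell markers read 2527 CPM, against 460.5 and 550.7 CPM in the other uninjured controls, and its summed endothelial markers 1973 CPM, against 571.8 and 807.6 CPM. Medians over the whole list that rest on uninjured controls, and the called control responses that moved by over 1.5 times, are also given without ctrl 1. Medians of parts of the list and of the second list are given with ctrl 1 only.

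Transcripts of the replication machinery were scarce in uninjured hepatocytes and far more abundant 48 h after CCl4, in both genotypes. Summed over the 47 genes, Yap/Taz KO + CCl4 libraries read 1501, 1476 and 1598 CPM, against 251.3, 255.6 and 279.5 CPM in Yap/Taz KO. The sums of ctrl + CCl4 libraries were 1557, 1234 and 1812 CPM, against 418.1, 255.1 and 281 CPM in ctrl. Every injured library lay above every uninjured one, and the highest uninjured sum was that of ctrl 1. In RNA of many cells, more cells in S phase and more RNA per cell cannot be told apart.

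**Figure D1:**
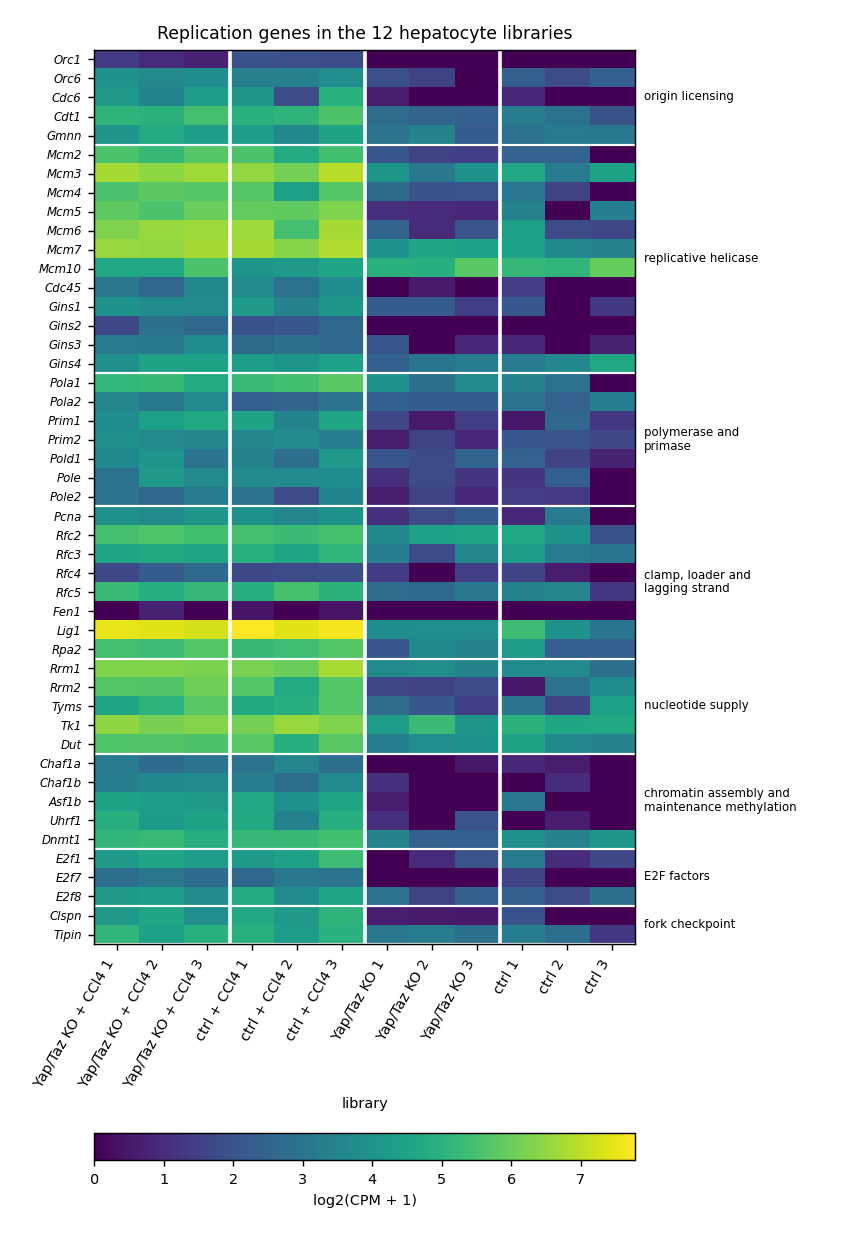
Level of each of the 47 replication genes (rows, grouped by step) in the 12 libraries (columns), as log2(CPM + 1); injured libraries stand in the left 6 columns. Nearly all rows are brighter on the left, Mcm10 is not, and Fen1 is dark throughout.

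In knockout hepatocytes 40 of the 44 genes tested rose with injury and 0 fell (edgeR adjusted p under 0.05). Over all 10780 genes tested, 9.4% were called higher and 8.35% lower. The median log2 fold change of the list was 2.86, and that of all genes tested 0.03. In all, 45 of the 47 genes had their 3 Yap/Taz KO + CCl4 libraries above their 3 Yap/Taz KO libraries, a pattern that 21.2% of tested genes showed. The 47 include genes that passed the low-count filter only through injured libraries, and genes not tested, so this count is a description only. The 4 tested genes that were not called were Mcm10, Pola1, Pola2 and Pold1.

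In control hepatocytes 39 of 44 genes rose with injury and 1, Mcm10, fell. The background there was 10.5% of genes higher and 12% lower. The median log2 fold change was 2.70 for the list and 0.03 for all genes. In 43 of 47 genes the 3 ctrl + CCl4 libraries lay above the 3 ctrl libraries, and in 1 below, against 19.1% and 17.6% of tested genes. These counts include the same genes and are likewise a description only. Orc6, Gins4, Pola2 and Pcna were not called. Without ctrl 1 the control median was 2.89. In a fit of the 6 control libraries alone Gmnn, Pold1, Rfc2, Rfc3, Tyms, Asf1b and E2f7 were no longer called (edgeR adjusted p 0.0525 to 0.0748). That fit tested 41 genes of the list, and Cdc6, Gins2 and Pole2 were not among them, so their control calls were lost there too. The injury responses of the genotypes share no library.

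Of the 44 genes tested, 25 passed the filter on low counts only through the injured libraries. This favoured a difference with injury, so their share of calls, and of separated libraries, is no result. The medians of 2.86 in Yap/Taz KO and 2.70 in ctrl include these 25 genes, so they too are a description only. The other 19 had enough counts in the uninjured libraries alone. Of these 19, 16 rose with injury in Yap/Taz KO and 0 fell, against 6.34% higher and 9.91% lower among 9037 genes that also pass on the uninjured libraries. Among ctrl samples 16 of the 19 rose and 1 fell, against 7.34% and 14.3%. Their median log2 fold changes were 1.97 in Yap/Taz KO and 1.90 in ctrl, against -0.07 in each genotype for those 9037 genes.

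**Figure D2:**
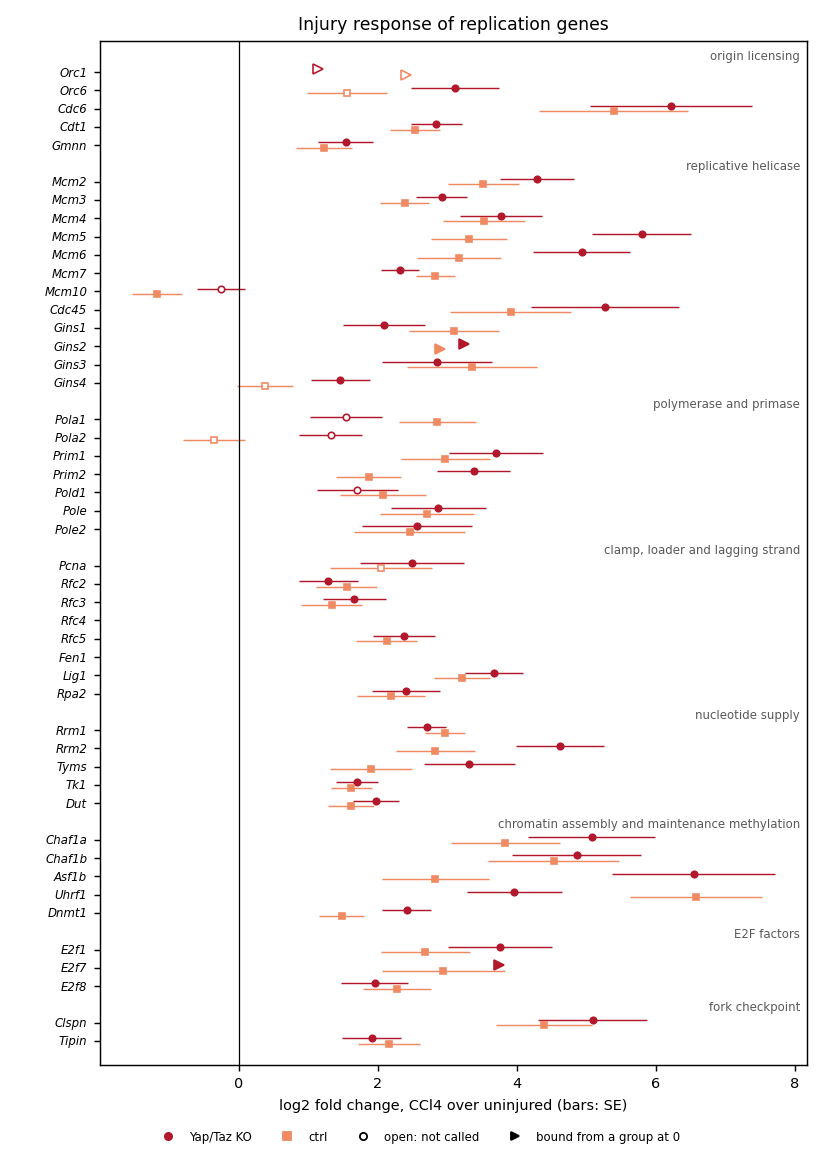
Log2 fold change of each replication gene with injury (CCl4 over uninjured, bars show the SE) in Yap/Taz KO and in ctrl; open symbols did not pass edgeR adjusted p under 0.05 and triangles mark lower bounds where the uninjured group had 0 counts. Nearly all points lie right of 0 in both genotypes, while Mcm10, and Pola2 in ctrl, lie left of it.

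Of the origin licensing genes, Cdt1 and Gmnn had enough counts in the uninjured libraries alone, and both rose in both genotypes. Orc6 and Cdc6 passed the filter only through the injured libraries. Cdt1 encodes the loader that brings MCM rings to origins. Cdt1 read 32.7, 31.1 and 43.8 CPM in Yap/Taz KO + CCl4, against 5.93, 4.8 and 4.24 CPM in Yap/Taz KO, and 29.5, 32.2 and 47.5 CPM in ctrl + CCl4, against 8.61, 6.51 and 2.83 CPM in ctrl. All 6 injured libraries lay above all 6 uninjured ones. Its log2 fold change was 2.84 ± 0.37 in Yap/Taz KO (SE; edgeR adjusted p = 0.000128) and 2.54 ± 0.36 in ctrl (SE; edgeR adjusted p = 0.000187). Gmnn encodes geminin, the inhibitor of CDT1 that accumulates once S phase has begun. Gmnn read 15.7, 25.8 and 19.1 CPM in Yap/Taz KO + CCl4, against 7.01, 10.1 and 3.82 CPM in Yap/Taz KO. It read 19.3, 11.5 and 21.5 CPM in ctrl + CCl4, against 6.56, 8.02 and 7.79 CPM in ctrl. The injured groups lay above the uninjured ones by smaller steps than for Cdt1. Gmnn had the smallest change of the step, at 1.54 ± 0.40 in Yap/Taz KO (edgeR adjusted p = 0.0158) and 1.23 ± 0.40 in ctrl (edgeR adjusted p = 0.0406). Its call in Yap/Taz KO was lost without Yap/Taz KO + CCl4 2 or Yap/Taz KO 3 (edgeR adjusted p 0.0669 to 0.0777). In ctrl it was lost without any of 8 libraries, namely every Yap/Taz KO + CCl4 and ctrl library and ctrl + CCl4 1 and 3 (edgeR adjusted p 0.0516 to 0.147).

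Cdc6, whose product loads the MCM ring together with CDT1, was nearly absent before injury. Cdc6 read 17.3, 10.4 and 19.1 CPM in Yap/Taz KO + CCl4, against 0.539, 0 and 0 CPM in Yap/Taz KO. It read 16.4, 2.43 and 29.5 CPM in ctrl + CCl4, against 0.82, 0 and 0 CPM in ctrl. Among injured controls the library ctrl + CCl4 2 lay far below the other 2, though still above every uninjured library. With 1 count in the Yap/Taz KO group, the ratio of CCl4 over uninjured was 98.1-fold (95% counting interval 17.3 to 3901). With 2 counts in the ctrl group it was 46.3-fold (95% counting interval 12.6 to 386). Both passed the test (edgeR adjusted p = 0.00192 in Yap/Taz KO and 0.0022 in ctrl). Without ctrl 1 the control group held 0 counts, and Cdc6 was at least 18-fold higher there. Orc6, a subunit of the origin recognition complex, rose in Yap/Taz KO (3.11 ± 0.64, SE; edgeR adjusted p = 0.00364). In ctrl its log2 fold change of 1.56 did not pass (edgeR adjusted p = 0.0664), but passed without Yap/Taz KO 3 (0.0186), with library totals as the scale (0.0223) and by DESeq2 (adjusted p = 0.0234). Orc1, the largest subunit of that complex, was too low to be tested. Orc1 stood at 1.57, 0.944 and 0.625 CPM in Yap/Taz KO + CCl4, against 0, 0 and 0 CPM in Yap/Taz KO. It stood at 2.92, 2.73 and 2.57 CPM in ctrl + CCl4, against 0, 0 and 0 CPM in ctrl. With a floor of 3 counts over an uninjured group it was at least 2.19-fold higher with CCl4 in Yap/Taz KO and at least 5.33-fold higher in ctrl.

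Of the 12 helicase genes, 11 were called higher in Yap/Taz KO and 10 in ctrl. Only Mcm3, Mcm7, Mcm10 and Gins4 had enough counts in the uninjured libraries alone. Of these 4, 3 rose in Yap/Taz KO, and in ctrl 2 rose and Mcm10 fell. Mcm3 and Mcm7 encode subunits of the hexameric MCM ring. Mcm7 read 94.3, 91.5 and 106 CPM in Yap/Taz KO + CCl4, against 15.1, 22.6 and 20.4 CPM in Yap/Taz KO, and 105, 81.4 and 115 CPM in ctrl + CCl4, against 20.1, 11.5 and 9.91 CPM in ctrl. Injured and uninjured libraries were separated by a wide gap in both genotypes. The log2 fold change of Mcm7 was 2.32 ± 0.27 in Yap/Taz KO (SE; edgeR adjusted p = 5.28e-05) and 2.83 ± 0.28 in ctrl (SE; edgeR adjusted p = 1.08e-05). Mcm3 read 105, 87.5 and 102 CPM in Yap/Taz KO + CCl4, against 16.2, 7.69 and 14.8 CPM in Yap/Taz KO, and 91.2, 69.6 and 123 CPM in ctrl + CCl4, against 23.8, 8.52 and 21.9 CPM in ctrl. Groups did not overlap here either. Mcm3 changed by 2.92 ± 0.37 in Yap/Taz KO (edgeR adjusted p = 0.000101) and by 2.39 ± 0.36 in ctrl (edgeR adjusted p = 0.000268). Mcm5 and Mcm6, also ring subunits, were added after their values were seen. Mcm5 read 56.9, 47.2 and 63.2 CPM in Yap/Taz KO + CCl4, against 1.08, 0.961 and 0.848 CPM in Yap/Taz KO. It read 59.4, 57.7 and 77 CPM in ctrl + CCl4, against 10.2, 0 and 9.2 CPM in ctrl. The Yap/Taz KO libraries were uniformly low, whereas ctrl 2 held no count and ctrl 1 and ctrl 3 stood well above the knockouts. Mcm5 had the largest fitted change of the step among genes with counts in every group, at 5.80 ± 0.71 in Yap/Taz KO (edgeR adjusted p = 7.95e-05), and rose by 3.32 ± 0.55 in ctrl (edgeR adjusted p = 0.000616).

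Mcm6 stood at 77.3, 94.1 and 97.9 CPM in Yap/Taz KO + CCl4, against 4.85, 0.961 and 2.97 CPM in Yap/Taz KO. It stood at 98.1, 43.1 and 105 CPM in ctrl + CCl4, against 20.5, 2.51 and 2.12 CPM in ctrl. Low values were those of ctrl + CCl4 2 among injured controls, and the high uninjured value was that of ctrl 1. Mcm6 rose by 4.94 ± 0.70 in Yap/Taz KO (SE, log2; edgeR adjusted p = 0.000244) and by 3.17 ± 0.61 in ctrl (edgeR adjusted p = 0.0017), or by 5.10 in ctrl without ctrl 1 (edgeR adjusted p = 1.13e-05). Mcm2 and Mcm4, the remaining ring subunits, rose by 4.29 and 3.78 in Yap/Taz KO and by 3.52 and 3.53 in ctrl (log2; edgeR adjusted p between 8.92e-05 and 0.000675).

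**Figure D3:**
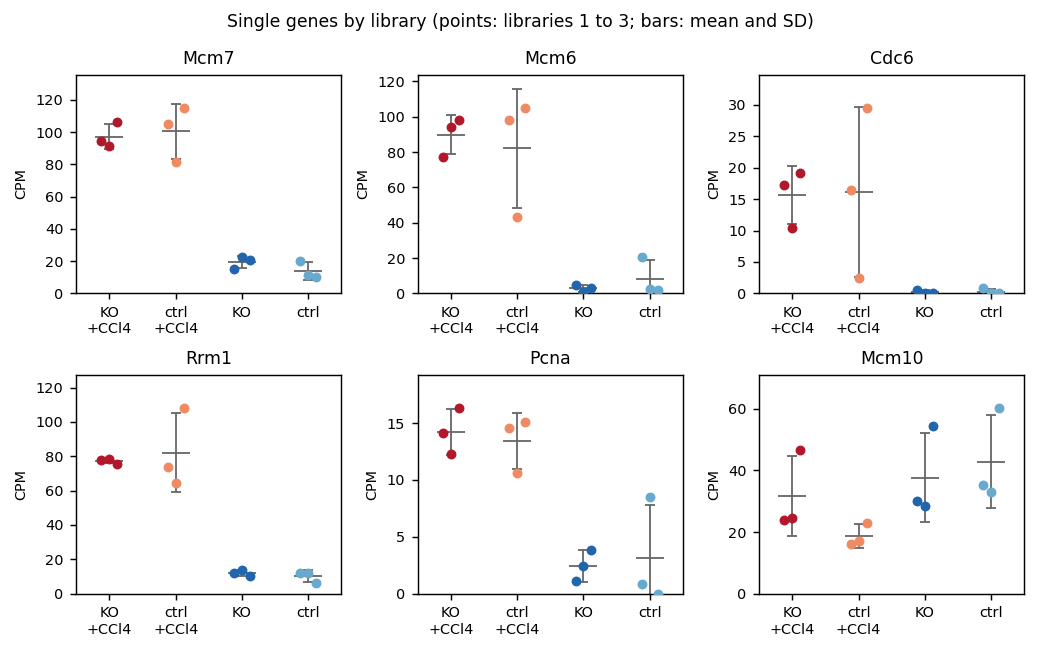
CPM of Mcm7, Mcm6, Cdc6, Rrm1, Pcna and Mcm10 in each library, with the mean and SD of each group (n = 3). In the first 5 genes every injured library lies above every uninjured one, and ctrl + CCl4 2 is the lowest injured control; Mcm10 runs the other way in ctrl.

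The partners that activate the ring were scarcer. Cdc45, with 1 count in the Yap/Taz KO group, had a ratio of 50-fold (95% counting interval 8.72 to 2002) (edgeR adjusted p = 0.00328). In ctrl Cdc45 rose by 3.91 ± 0.87 on the log2 scale (edgeR adjusted p = 0.00487). Its 4 control counts were all in ctrl 1, without which it was at least 11.8-fold higher. Gins2 had 0 counts in all 6 uninjured libraries and was at least 9.44-fold higher with CCl4 in Yap/Taz KO and at least 7.46-fold higher in ctrl. The last 1000 bases of Gins2 lie wholly within Gse1 on the opposite strand, and whether counting used strand is not stated, so its counts are uncertain. Gins1 rose by 2.09 in Yap/Taz KO and 3.10 in ctrl (log2; edgeR adjusted p = 0.0241 and 0.00321). Gins3 rose by 2.85 in Yap/Taz KO (edgeR adjusted p = 0.0219), and in ctrl, where 3 counts were found before injury, by 11.1-fold (95% counting interval 3.59 to 55.5). Without Yap/Taz KO 1 the knockouts held 2 counts of Gins3, and the ratio there was 21.6-fold (95% counting interval 5.81 to 181). The Gins1 call in Yap/Taz KO was lost without any of 5 libraries (Yap/Taz KO + CCl4 1, 2 or 3, Yap/Taz KO 2 or 3; edgeR adjusted p up to 0.0936), and that of Gins3 without any of 4 (Yap/Taz KO + CCl4 1 or 3, Yap/Taz KO 2 or 3; up to 0.0817), or in ctrl without ctrl 2 (0.0569). Gins4, the smallest change of the step in ctrl, stood at 1.46 in Yap/Taz KO (edgeR adjusted p = 0.0274) and 0.38 in ctrl (edgeR adjusted p = 0.558). Its call in Yap/Taz KO was lost without Yap/Taz KO + CCl4 2 or 3 or Yap/Taz KO 1 or 2 (edgeR adjusted p up to 0.0904).

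Mcm10, whose product helps the assembled helicase to start, was the only gene of the list called lower, and this in ctrl alone. Mcm10 read 23.9, 24.5 and 46.6 CPM in Yap/Taz KO + CCl4, against 30.2, 28.3 and 54.3 CPM in Yap/Taz KO. These groups overlapped. It read 16, 17 and 23.1 CPM in ctrl + CCl4, against 35.3, 33.1 and 60.2 CPM in ctrl. All 3 injured controls lay below all 3 uninjured ones. The log2 fold change was -1.18 ± 0.36 in ctrl (SE; edgeR adjusted p = 0.0273) and -0.25 ± 0.35 in Yap/Taz KO (SE; edgeR adjusted p = 0.671). The control call was lost without ctrl + CCl4 1 (-1.06, edgeR adjusted p = 0.0987), without ctrl + CCl4 2 (-1.08, 0.094), without ctrl 3 (-0.86, 0.128) and with library totals as the scale (-0.78, 0.147). In Yap/Taz KO the direction turned without Yap/Taz KO 3 (0.11) and with library totals (0.092). The library numbered 3 was the highest of its group for Mcm10 in each of the 4 groups. No exon of another gene lies in the last 1000 bases of Mcm10.

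Polymerase and primase genes gave 4 calls of 7 in Yap/Taz KO and 6 of 7 in ctrl, all higher. Only Pola1 and Pola2 had enough counts in the uninjured libraries alone, and of these Pola1 was called, in ctrl. Pola1 encodes the catalytic subunit of polymerase alpha. Pola1 read 34.6, 36.2 and 26 CPM in Yap/Taz KO + CCl4, against 15.1, 6.25 and 11.9 CPM in Yap/Taz KO. It read 37.2, 41.6 and 53.9 CPM in ctrl + CCl4, against 10.2, 6.51 and 0 CPM in ctrl. Both injured groups lay wholly above their uninjured ones, and ctrl 3 held no count. Pola1 rose in ctrl by 2.86 ± 0.55 (edgeR adjusted p = 0.0018). In Yap/Taz KO 1.54 ± 0.51 fell just short (edgeR adjusted p = 0.0505), and passed without ctrl 1 (0.0218), ctrl 2 (0.0487) or ctrl 3 (0.00445). Pola1 in Yap/Taz KO also passed by DESeq2 (adjusted p = 0.0075) and in edgeR fits with another scale (RLE or library totals), another filter (none, or 5 CPM) or the 6 libraries compared alone (adjusted p 0.000514 to 0.0486). Prim1, the catalytic primase subunit, had the largest change of the step. Prim1 read 12.9, 20.1 and 24.7 CPM in Yap/Taz KO + CCl4, against 2.16, 0.48 and 1.7 CPM in Yap/Taz KO, and 21.2, 10.3 and 22.8 CPM in ctrl + CCl4, against 0.41, 5.01 and 1.42 CPM in ctrl. Every injured library exceeded every uninjured one. The log2 fold change was 3.70 ± 0.67 in Yap/Taz KO (edgeR adjusted p = 0.00158) and 2.97 ± 0.64 in ctrl (edgeR adjusted p = 0.00398). Prim2, which holds the primase in its complex with the polymerase, rose by 3.38 in Yap/Taz KO and 1.87 in ctrl (log2; edgeR adjusted p = 0.00052 and 0.0105).

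Pola2, the accessory subunit of polymerase alpha, was called in neither genotype. Pola2 read 10.7, 7.86 and 11.6 CPM in Yap/Taz KO + CCl4, against 4.31, 3.84 and 3.82 CPM in Yap/Taz KO. It read 4.38, 4.86 and 6.74 CPM in ctrl + CCl4, against 6.97, 4.51 and 9.2 CPM in ctrl. Injury separated the knockout libraries, while the control libraries overlapped. The log2 fold change was 1.32 ± 0.45 in Yap/Taz KO (SE; edgeR adjusted p = 0.0554) and -0.35 ± 0.45 in ctrl (SE; edgeR adjusted p = 0.626). The first passed without ctrl 2 (0.043) or ctrl 3 (0.0419), with library totals (0.0184) and in a fit of the 6 libraries compared (0.0412), and the second turned to 0.034 with library totals. Pold1, the catalytic subunit of polymerase delta, rose in ctrl (2.08, edgeR adjusted p = 0.0241) and did not pass in Yap/Taz KO (1.71, edgeR adjusted p = 0.0578). The control call was lost without ctrl + CCl4 1 or 3 or ctrl 2 or 3 (up to 0.128), and the knockout value passed without ctrl 1 or ctrl 3 (0.0337 and 0.0377). Pold1 in Yap/Taz KO also passed with library totals (0.0296), with no low-count filter (0.0385), in a fit of the 6 libraries compared (0.0282) and by DESeq2 (adjusted p = 0.0383). Pole, the catalytic subunit of polymerase epsilon, rose by 2.87 in Yap/Taz KO and 2.71 in ctrl (log2; edgeR adjusted p = 0.00946 and 0.01). The knockout call was lost without Yap/Taz KO + CCl4 2 (0.0523). Pole2, its second subunit, rose by 2.56 and 2.46 (edgeR adjusted p = 0.0359 in Yap/Taz KO and 0.0369 in ctrl). Its calls were lost on leaving out 8 of the 12 libraries in Yap/Taz KO (all but ctrl + CCl4 2 and the 3 ctrl libraries; up to 0.111) and 7 in ctrl (all Yap/Taz KO + CCl4 libraries, ctrl + CCl4 1 and 3, ctrl 2 and 3; up to 0.164).

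Of the clamp, loader and lagging-strand genes 6 of 6 tested rose in Yap/Taz KO and 5 of 6 in ctrl. The 5 called in both, all but Pcna, had enough counts in the uninjured libraries alone. Lig1 encodes the ligase that seals Okazaki fragments. Lig1 read 179, 167 and 156 CPM in Yap/Taz KO + CCl4, against 12.9, 13 and 13.1 CPM in Yap/Taz KO, and 219, 173 and 203 CPM in ctrl + CCl4, against 39.8, 15 and 7.08 CPM in ctrl. The gap between injured and uninjured libraries was wide, and ctrl 1 was the highest uninjured library. Lig1 had the largest change of the step, at 3.68 ± 0.42 in Yap/Taz KO (SE; edgeR adjusted p = 4.32e-05) and 3.22 ± 0.40 in ctrl (SE; edgeR adjusted p = 6.34e-05). Rfc2, a subunit of the clamp loader, had the smallest in Yap/Taz KO. Rfc2 read 44.3, 49.1 and 41.9 CPM in Yap/Taz KO + CCl4, against 11.3, 21.1 and 22.5 CPM in Yap/Taz KO, and 43.4, 38.6 and 44.6 CPM in ctrl + CCl4, against 23.8, 14.5 and 2.83 CPM in ctrl. The groups did not overlap but lay close. Its log2 fold change was 1.29 ± 0.43 in Yap/Taz KO (edgeR adjusted p = 0.0496) and 1.56 ± 0.44 in ctrl (edgeR adjusted p = 0.0188). The knockout call was lost without any of 10 libraries (all but ctrl 1 and ctrl 3; edgeR adjusted p 0.0508 to 0.148) and the control call without ctrl + CCl4 1 or 3 (0.053 and 0.0606).

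Rfc3 had the smallest change of the step in ctrl, at 1.34 ± 0.44 (SE; edgeR adjusted p = 0.0398), and rose by 1.66 ± 0.45 in Yap/Taz KO (edgeR adjusted p = 0.02). Its control call was lost without any of 8 libraries (all injured libraries and ctrl 2 and 3; up to 0.129) and its knockout call without Yap/Taz KO + CCl4 1 or 2 or Yap/Taz KO 2 (up to 0.0695). Rfc5, another loader subunit, and Rpa2, a subunit of the single-strand binding protein RPA, rose by 2.38 and 2.41 in Yap/Taz KO and by 2.13 and 2.19 in ctrl (log2; edgeR adjusted p between 0.00194 and 0.00506). Without ctrl 1 the control value of Rpa2 was 3.37 (edgeR adjusted p = 8.42e-05). Pcna, the clamp itself, was shown after its values were seen. Pcna read 14.1, 12.3 and 16.3 CPM in Yap/Taz KO + CCl4, against 1.08, 2.4 and 3.82 CPM in Yap/Taz KO. It read 14.6, 10.6 and 15.1 CPM in ctrl + CCl4, against 0.82, 8.52 and 0 CPM in ctrl. Injured libraries all lay above uninjured ones, with ctrl 2 the highest of the uninjured. Pcna rose by 2.49 ± 0.75 in Yap/Taz KO (edgeR adjusted p = 0.0321), and in ctrl 2.04 ± 0.73 did not pass (edgeR adjusted p = 0.0588). The control value was 4.61 without ctrl 2 (edgeR adjusted p = 0.000934). It also passed with library totals (0.0296), with no low-count filter (0.00397) and by DESeq2 (adjusted p = 0.0206), and the knockout call was lost without any of 7 libraries (Yap/Taz KO + CCl4 1, 2 or 3, ctrl + CCl4 1 or 3, Yap/Taz KO 1 or 2; up to 0.097).

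A pair of genes of this step was too low to be tested. Rfc4 stood at 2.2, 3.78 and 5.32 CPM in Yap/Taz KO + CCl4, against 1.62, 0 and 1.7 CPM in Yap/Taz KO. Rfc4 stood at 2.19, 2.43 and 2.57 CPM in ctrl + CCl4, against 2.05, 0.501 and 0 CPM in ctrl. Each injured group lay above its uninjured group, at levels of few counts. Fen1 encodes the flap endonuclease that trims Okazaki fragments. Fen1 stood at 0, 0.629 and 0 CPM in Yap/Taz KO + CCl4, against 0, 0 and 0 CPM in Yap/Taz KO. It stood at 0.365, 0 and 0.321 CPM in ctrl + CCl4, against 0, 0 and 0 CPM in ctrl. Its 4 counts over 12 libraries give no comparison. Of the last 1000 bases of Fen1, 943 lie under Gm10143 on the opposite strand. So do 943 of Chaf1a under Ubxn6, 499 of Rfc5 under Wsb2 and 194 of Rfc4 under Eif4a2. The same holds for 168 of Rfc2 under Lat2 and 64 of Mcm7 under Cops6. Counts of these genes are uncertain where counting ignored strand. In Mcm7, Mir25 covers 84 and Mir93 covers 60 of those bases on the same strand, which a strand setting would not separate.

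All 5 nucleotide supply genes rose in both genotypes, and 4 of them, all but Rrm2, had enough counts in the uninjured libraries alone. Tk1 encodes the thymidine kinase of the salvage route. Tk1 read 89.6, 71.4 and 80.1 CPM in Yap/Taz KO + CCl4, against 18.9, 38.9 and 16.1 CPM in Yap/Taz KO, and 70.8, 94.5 and 76 CPM in ctrl + CCl4, against 30.7, 22.6 and 24.8 CPM in ctrl. Groups were apart in both genotypes. Tk1 had the smallest change of the step, at 1.71 ± 0.30 in Yap/Taz KO (SE; edgeR adjusted p = 0.0012) and 1.62 ± 0.30 in ctrl (SE; edgeR adjusted p = 0.00129). Rrm1 and Rrm2 encode the large and small subunits of ribonucleotide reductase. Rrm1 read 77.6, 78.6 and 75.7 CPM in Yap/Taz KO + CCl4, against 11.9, 13.5 and 10.2 CPM in Yap/Taz KO, and 73.7, 64.4 and 108 CPM in ctrl + CCl4, against 12.3, 12 and 6.37 CPM in ctrl. The 3 knockout libraries of each treatment lay close together, and ctrl + CCl4 3 was the highest of all. Rrm1 rose by 2.71 ± 0.28 in Yap/Taz KO (edgeR adjusted p = 1.82e-05) and by 2.97 ± 0.29 in ctrl (edgeR adjusted p = 9.46e-06), the largest change of the step in ctrl. Rrm2 rose by 4.62 ± 0.64 in Yap/Taz KO (edgeR adjusted p = 0.000196), the largest there, and by 2.83 ± 0.57 in ctrl (edgeR adjusted p = 0.00246). Tyms, thymidylate synthase, rose by 3.32 in Yap/Taz KO and 1.90 in ctrl, and Dut, the dUTPase, by 1.97 in Yap/Taz KO and 1.62 in ctrl (log2; edgeR adjusted p between 0.000945 and 0.0313). The control call of Tyms was lost without ctrl + CCl4 3, ctrl 1 or ctrl 2 (edgeR adjusted p 0.0635 to 0.129), and its value was 2.90 without ctrl 3 (edgeR adjusted p = 0.00445).

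All 5 genes of chromatin assembly and maintenance methylation were called higher in both genotypes, but only Dnmt1 had enough counts in the uninjured libraries alone. The other 4 were tested only through the injured libraries, which favoured a difference, so their calls are given as a description. Dnmt1 copies DNA methylation onto the new strand. Dnmt1 read 33.6, 37.4 and 28.1 CPM in Yap/Taz KO + CCl4, against 10.2, 4.32 and 4.24 CPM in Yap/Taz KO, and 35, 35.8 and 42.3 CPM in ctrl + CCl4, against 14.3, 10 and 16.3 CPM in ctrl. Uninjured controls lay between the uninjured knockouts and the injured groups, with a slight overlap with the knockouts. Dnmt1 had the smallest change of the step, at 2.42 ± 0.35 in Yap/Taz KO (SE; edgeR adjusted p = 0.000292) and 1.48 ± 0.33 in ctrl (SE; edgeR adjusted p = 0.00437). Uhrf1 recruits DNMT1 to DNA methylated on the parental strand. Uhrf1 read 28.3, 17.9 and 21.9 CPM in Yap/Taz KO + CCl4, against 1.08, 0 and 2.97 CPM in Yap/Taz KO, and 25.2, 9.72 and 28.2 CPM in ctrl + CCl4, against 0, 0.501 and 0 CPM in ctrl. The lowest injured library, ctrl + CCl4 2, still stood above all uninjured ones. Uhrf1 rose by 3.97 ± 0.69 in Yap/Taz KO (edgeR adjusted p = 0.00109). With 1 count among uninjured controls, its ratio in ctrl was 121-fold (95% counting interval 21.4 to 4795), the largest of the step there (edgeR adjusted p = 0.000206).

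Asf1b, a histone chaperone, had the largest change of the step in Yap/Taz KO. Asf1b read 21.7, 19.2 and 17.5 CPM in Yap/Taz KO + CCl4, against 0.539, 0 and 0 CPM in Yap/Taz KO, and 24.1, 14 and 23.1 CPM in ctrl + CCl4, against 7.38, 0 and 0 CPM in ctrl. Apart from 1 count in Yap/Taz KO, ctrl 1 was the single uninjured library with counts. The ratio was 122-fold (95% counting interval 21.7 to 4864) in Yap/Taz KO (edgeR adjusted p = 0.00139), and the log2 fold change in ctrl was 2.83 ± 0.77 (edgeR adjusted p = 0.0163). The control call was lost without ctrl + CCl4 1 or 3 (0.0526 and 0.0533). Without ctrl 1, which held all 18 control counts, Asf1b was at least 22.8-fold higher in ctrl (edgeR adjusted p = 5.04e-05). Chaf1a and Chaf1b, subunits of the chromatin assembly factor CAF-1 that loads histones behind the fork, had 1 and 2 counts in Yap/Taz KO and 3 and 2 in ctrl. Chaf1a ratios were 43.5-fold (95% counting interval 7.53 to 1742) in Yap/Taz KO and 15.3-fold (95% counting interval 5.04 to 76.1) in ctrl. Those of Chaf1b were 33.9-fold (95% counting interval 9.15 to 284) in Yap/Taz KO and 26.2-fold (95% counting interval 7.03 to 220) in ctrl. Without Yap/Taz KO 1 the knockouts held 0 counts of Chaf1b, which was then at least 15.95-fold higher, and without ctrl 2 the controls held 0 and it was at least 11.5-fold higher. With all libraries the 4 passed the test (edgeR adjusted p between 0.00144 and 0.00299).

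The 3 E2F genes passed the filter only through the injured libraries, which favoured a difference. Their 3 calls in each genotype are given as a description. E2f1 is an activator of S phase genes. E2f1 read 17.6, 23 and 18.1 CPM in Yap/Taz KO + CCl4, against 0, 0.961 and 2.97 CPM in Yap/Taz KO, and 17.5, 20.7 and 40.4 CPM in ctrl + CCl4, against 8.2, 1 and 2.12 CPM in ctrl. Injured libraries lay above uninjured ones throughout. E2f1 rose by 3.76 ± 0.74 in Yap/Taz KO (SE; edgeR adjusted p = 0.00285) and by 2.69 ± 0.65 in ctrl (SE; edgeR adjusted p = 0.00788), or by 4.10 in ctrl without ctrl 1 (edgeR adjusted p = 0.000763). E2f7 and E2f8 encode atypical members of the family that repress E2F targets and act in the polyploidy of hepatocytes. E2f7 read 5.97, 7.55 and 5.63 CPM in Yap/Taz KO + CCl4, against 0, 0 and 0 CPM in Yap/Taz KO, and 5.11, 7.59 and 6.74 CPM in ctrl + CCl4, against 2.05, 0 and 0 CPM in ctrl. Before injury ctrl 1 alone held counts of E2f7. It was at least 13.4-fold higher with CCl4 in Yap/Taz KO (edgeR adjusted p = 0.00401). In ctrl it rose by 2.94 ± 0.89 (edgeR adjusted p = 0.0301), a call lost without any of 7 libraries (Yap/Taz KO + CCl4 1 or 2, any ctrl + CCl4 library, ctrl 2 or 3; up to 0.0837). Without ctrl 1 it was at least 7.45-fold higher in ctrl (edgeR adjusted p = 0.00305). E2f8 read 17, 19.5 and 12.5 CPM in Yap/Taz KO + CCl4, against 6.47, 1.92 and 4.24 CPM in Yap/Taz KO, and 26.6, 12.5 and 22.8 CPM in ctrl + CCl4, against 4.1, 2.51 and 6.37 CPM in ctrl. The groups did not overlap. E2f8 rose by 1.96 ± 0.48 in Yap/Taz KO (edgeR adjusted p = 0.011) and by 2.28 ± 0.48 in ctrl (edgeR adjusted p = 0.00362). Without Yap/Taz KO 2 the knockout call was lost (0.0541).

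Both fork checkpoint genes were called higher in both genotypes, and Tipin alone had enough counts in the uninjured libraries. Clspn encodes claspin, the mediator that passes the signal of a stalled fork to CHK1. Clspn read 17.3, 23.3 and 13.1 CPM in Yap/Taz KO + CCl4, against 0.539, 0.48 and 0.424 CPM in Yap/Taz KO, and 24.8, 17.3 and 32.7 CPM in ctrl + CCl4, against 2.87, 0 and 0 CPM in ctrl. Every injured library stood far above every uninjured one. With 3 counts in Yap/Taz KO its ratio there was 37.5-fold (95% counting interval 12.6 to 184) (edgeR adjusted p = 0.000457), and in ctrl it rose by 4.39 ± 0.69 on the log2 scale (edgeR adjusted p = 0.000375). All 7 control counts of Clspn were in ctrl 1, without which it was at least 28.2-fold higher in ctrl (edgeR adjusted p = 2.28e-05). Tipin belongs to the complex that holds helicase and polymerase together at the fork. Tipin read 33.9, 21.1 and 30 CPM in Yap/Taz KO + CCl4, against 7.55, 8.65 and 6.36 CPM in Yap/Taz KO, and 29.9, 18.2 and 30.5 CPM in ctrl + CCl4, against 9.02, 6.01 and 1.42 CPM in ctrl. Groups were again apart. Tipin rose by 1.91 ± 0.43 in Yap/Taz KO (SE; edgeR adjusted p = 0.00635) and 2.16 ± 0.44 in ctrl (SE; edgeR adjusted p = 0.00272).

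Responses of genes with and without the E2F-type motif were set side by side. Among tested genes with a RefSeq promoter entry the median log2 fold change in Yap/Taz KO was 2.89 for 16 genes with a match and 3.11 for 19 without. In ctrl it was 2.90 with a match and 2.28 without. These medians describe the list, and the difference was not tested.

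Some markers of other cells moved with injury too, and some lists gave no calls. Of all genes tested 9.4% were called higher and 8.35% lower in Yap/Taz KO, and 10.5% and 12% in ctrl. The marker lists were short and not split by the filter on the uninjured libraries, so their calls are a description only. All 8 tested monocyte and neutrophil markers of 9 rose in Yap/Taz KO and 5 of 8 in ctrl. Their summed level was 721.1 to 1166 CPM in Yap/Taz KO + CCl4, against 31.23 to 45.83 CPM in Yap/Taz KO, and 782.2 to 957.8 CPM in ctrl + CCl4, against 59.13 to 134.4 CPM in ctrl. Lcn2, which injured hepatocytes also express, made up most of that sum in the injured libraries, and Csf3r was at or near 0 throughout. Macrophage and Kupffer cell markers rose in 3 of 10 in Yap/Taz KO and 2 of 10 in ctrl. Their sums were 1504 to 2358 CPM in Yap/Taz KO + CCl4, against 208 to 1001 CPM in Yap/Taz KO, and 1905 to 2761 CPM in ctrl + CCl4, against 460.5 to 2527 CPM in ctrl. Stellate cell markers rose in 4 of 9 in Yap/Taz KO and 3 of 9 in ctrl, with sums of 1177 to 1367 CPM in Yap/Taz KO + CCl4, against 263.3 to 618.8 CPM in Yap/Taz KO, and 744.8 to 1559 CPM in ctrl + CCl4, against 251.1 to 955.9 CPM in ctrl. Of 9 endothelial markers 0 passed in either genotype. Lymphocyte markers summed to at most 15.64 CPM in any library, with Cd79a and Trac at 0 in all 12. Of the cholangiocyte markers 3 of 8 could be tested and 1 rose in each genotype, Krt7 and Cftr staying at or near 0. Of 4 tested erythroid markers 0 passed in Yap/Taz KO and 2 fell in ctrl, where ctrl 1 summed to 1579 CPM. Hepatocyte markers fell in 1 of 8 in Yap/Taz KO and in 8 of 8 in ctrl, with sums of 69200 to 86710 CPM in Yap/Taz KO + CCl4, against 111800 to 138900 CPM in Yap/Taz KO, and 46650 to 62920 CPM in ctrl + CCl4, against 96310 to 133700 CPM in ctrl. The part of other cells in the rise of replication genes was not tested.

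**Figure D4:**
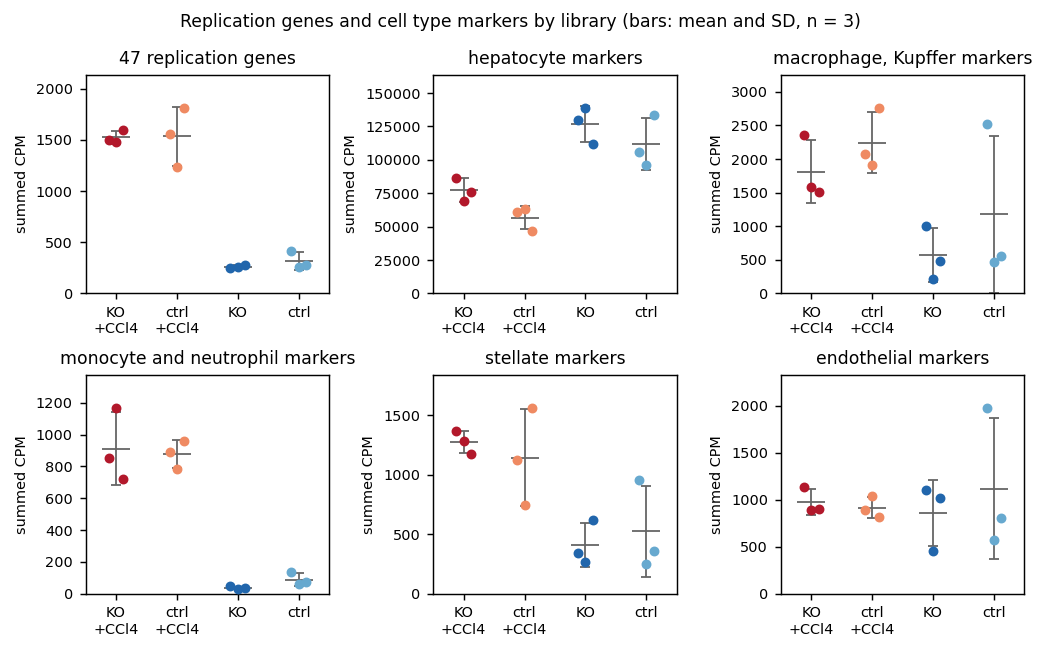
Summed CPM of the 47 replication genes and of marker lists in each library, with the mean and SD per group (n = 3). The replication sum is 1234 to 1812 CPM in injured libraries, against 251.3 to 418.1 CPM in uninjured ones; monocyte and neutrophil markers follow the same split, while endothelial markers overlap and ctrl 1 is high for macrophage markers.

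A second list held 60 other replication genes, with helper subunits, regulators and topoisomerases. Of the 54 tested, 18 rose and 1 fell in Yap/Taz KO, and 21 rose and 1 fell in ctrl, where 9.4% and 10.5% of all genes tested rose in Yap/Taz KO and in ctrl. This list was not split by the filter on the uninjured libraries. It includes genes tested only through the injured ones, such as Cdc7 and Atad5, so its share of calls is a description only. The list had median log2 fold changes of 0.82 and 0.74. Top2a, the topoisomerase that untangles sister DNA, read 331, 340 and 210 CPM in Yap/Taz KO + CCl4, against 12.9, 2.88 and 5.09 CPM in Yap/Taz KO, and 460, 427 and 386 CPM in ctrl + CCl4, against 27.5, 3.51 and 3.54 CPM in ctrl. It had the smallest p of that list in both genotypes, with log2 fold changes of 5.42 in Yap/Taz KO and 5.12 in ctrl (edgeR adjusted p = 8.42e-05 and 6.13e-05). Next came Dtymk, the thymidylate kinase (2.39, edgeR adjusted p = 9.62e-05), and Hells, a chromatin remodeller (4.87, 0.000157), in Yap/Taz KO. In ctrl they were Dbf4, the activator of the CDC7 kinase (4.25, edgeR adjusted p = 0.000148), and Hells (4.40, 0.00019). Shmt1, a folate enzyme abundant in hepatocytes, was the gene that fell, by 0.95 in Yap/Taz KO and by 0.82 in ctrl on the log2 scale (edgeR adjusted p = 0.00434 and 0.00851). With library totals as the scale Shmt1 passed in neither genotype (0.0628 and 0.119).

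Between injured knockout and injured control hepatocytes no replication gene passed the test. The sums over 47 genes averaged 1525 ± 64.4 CPM in Yap/Taz KO + CCl4 and 1534 ± 290 CPM in ctrl + CCl4 (SD, n = 3 each). Of 44 genes 0 were called by edgeR, as were 0 of all 10780 genes (background 0%). DESeq2 called 0 of the list too. At an unadjusted p under 0.05 there was 1, Mcm10 (0.76 ± 0.35, SE; edgeR adjusted p = 0.869), against 5.69% of all genes. The median log2 fold change was 0.05, with 24 genes above 0 (49.1% of all genes tested) and 20 below, and the range was -0.48 (Clspn) to 0.91 (Pola2). Of the 44 estimates, 41 lay within 0.5 of 0. The 95% interval lay within 1 log2 unit of 0 for 13 genes, within 1.5 for 35 and within 2 for 43. Small differences were therefore not detectable at this spread, and the test does not show that the genotypes were alike.

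**Figure D5:**
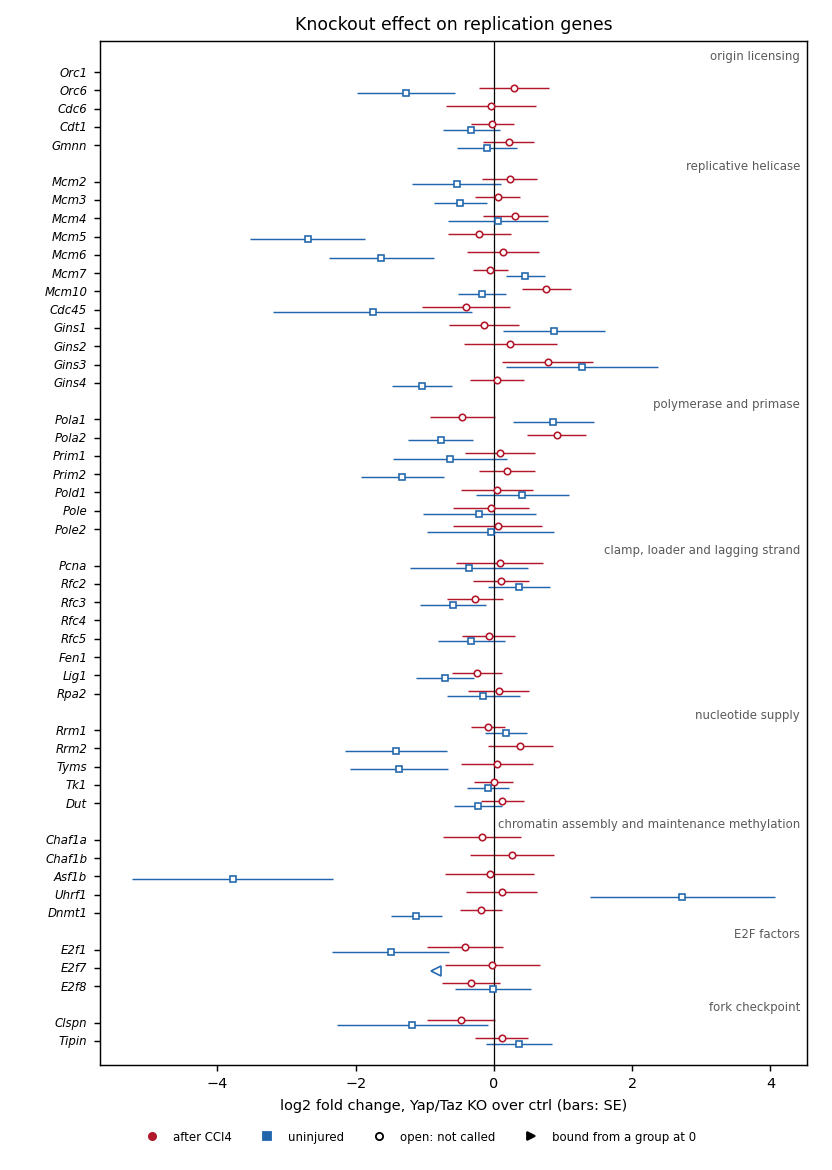
Log2 fold change of Yap/Taz KO over ctrl for each replication gene, after CCl4 and without injury (bars show the SE; open symbols did not pass edgeR adjusted p under 0.05; the triangle marks a bound). After CCl4 the points lie between -0.48 and 0.91; without injury they spread more widely and most lie below 0.

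Some well measured genes lay close to 0. Those named here were chosen with their values known and do not stand for the list. Mcm7 differed by -0.05 (95% interval -0.58 to 0.48), Rrm1 by -0.09 (-0.62 to 0.44), Tk1 by -0.00 (-0.60 to 0.60) and Dnmt1 by -0.19 (-0.83 to 0.45). In 3 genes the Yap/Taz KO + CCl4 libraries all lay above the ctrl + CCl4 libraries, namely Mcm10, Gins3 and Pola2, and in 2 all below, Orc1 and Pola1. Of all genes tested 8.51% and 7.81% were separated in these directions. Pola2 differed by 0.91 ± 0.43 (SE; edgeR adjusted p = 0.882). The balance of signs moved with single libraries and with the scale. Without ctrl + CCl4 2 the median was -0.11 (15 genes above 0, 30 below), and without ctrl + CCl4 3 it was 0.23 (32 above, 13 below). With library totals the median was -0.12 (11 above, 33 below), a scale that shifts the median of all genes by -0.14.

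Those 2 libraries bounded the injured controls. The library ctrl + CCl4 3 was the highest of its group for 32 of 44 genes (31.6% of all genes tested), and ctrl + CCl4 2 the lowest for 28 (35.7%). Yap/Taz KO + CCl4 libraries showed no such order, the highest being library 1 for 11 genes, library 2 for 15 and library 3 for 18. Whether the spread differed between the genotypes was not tested.

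Without injury 0 of 44 genes were called between the genotypes by edgeR (background 0%), and 0 by DESeq2. Summed levels were 262.1 ± 15.2 CPM in Yap/Taz KO and 318.1 ± 87.6 CPM in ctrl (SD, n = 3 each). At an unadjusted p under 0.05 there were 7, against 9.48% of all genes, and all 7 were lower in Yap/Taz KO (5.42% of all genes). They were Mcm5 (-2.70 ± 0.83, SE; edgeR adjusted p = 0.393), Dnmt1 (-1.12 ± 0.37, edgeR adjusted p = 0.406), Asf1b, Gins4, E2f7, Prim2 and Mcm6. Of these only Dnmt1 and Gins4 had enough counts in the uninjured libraries alone. In all, 33 of 44 genes lay below 0, 10 above and Gins2 at 0 counts in both groups, where 52.9% of all genes lay below 0. The median of the list was -0.34. Of the 19 genes with enough counts in the uninjured libraries alone, 14 lay below 0 (median -0.23), against 4649 of 9037 genes that also pass there. Without ctrl 1 the median of the list was 0.00, with 23 genes above 0 and 20 below. That library was the highest uninjured control for 27 of 44 genes (36.6% of all genes), and it is also the one high in macrophage, endothelial and red cell markers, whose part in these values was not tested. Without a low-count filter Mcm5 (-2.67, edgeR adjusted p = 0.000556), Asf1b (-3.76, 0.0216) and Mcm6 (-1.61, 0.0186) were called lower, and without ctrl 2 Mcm5 (-3.29, 0.0143). Prim2 and Pola2 had all 3 Yap/Taz KO libraries below all 3 ctrl libraries, as did 4.94% of genes. The 95% interval lay within 2 log2 units of 0 for 23 genes.

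Whether the injury response itself differed between the genotypes was tested as the difference of the responses, Yap/Taz KO minus ctrl. By edgeR 0 of 44 genes were called (background 0%), 3 had an unadjusted p under 0.05 (8.11% of all genes) and DESeq2 called 0. The median was 0.40, with 34 genes above 0 and 10 below, where 54% of all genes lay above 0. Of the 19 genes with enough counts in the uninjured libraries alone, 5 lay below 0 (median 0.31), against 4175 of 9037 genes that also pass there. Without ctrl 1 the median of the list was -0.08, with 18 above and 27 below. The 3 genes with an unadjusted p under 0.05 were Pola2 (1.67 ± 0.63, SE), Mcm5 (2.48 ± 0.96) and Asf1b (3.72 ± 1.62), with edgeR adjusted p between 0.589 and 0.6. Of these only Pola2 had enough counts in the uninjured libraries alone. Mcm5 was called without a low-count filter (2.46, edgeR adjusted p = 0.0295). The interval lay within 2 log2 units of 0 for 16 of 44 genes. Of the 60 other replication genes, 0 of 54 tested were called in either knockout comparison or in the difference.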

How the data were processed

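Hepatocytes were isolated by collagenase perfusion, sorted, and 500000 cells per library were lysed, per the labels' protocols. Libraries were made with the QuantSeq 3' mRNA-Seq kit (FWD), which reads 1 tag near the 3' end of a transcript. The deposited table holds raw read counts per gene symbol, whole numbers that the authors did not scale between samples. The submitters' processing notes name FastQC, cutadapt, STAR 2.6.1d and mm10 (GRCm38). None of the sources used here names the counter, its annotation, its strand setting or any molecular identifiers.

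The tests were made in edgeR 4.0.16 under R 4.3.3. The filterByExpr filter (minimum count 10, minimum total 15) left 10780 genes, TMM factors ran between 0.777 and 1.31, and each group had 1 coefficient in a fit of all 12 libraries. Quasi-likelihood F tests were adjusted over all those genes after Benjamini and Hochberg, at 0.05. Each SE of a log2 fold change was derived from that fold change and its F statistic, not fitted directly. The 95% intervals of log2 fold changes use this SE and a t quantile. Both are approximate, and unreliable where a group held few or no counts. The biological coefficient of variation was 0.323. CPM are TMM-scaled. Fold changes against a group with 0 counts are lower bounds from a floor of 3 counts over the group, and with 1 to 3 counts ratios with exact 95% intervals, which cover counting error only. Libraries of a group all differed beyond sampling noise, with a chi-square of 8.56 to 26.61 per degree of freedom. Simulated counts carrying set fold changes served to check the fit.

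The members and the gene lists were chosen with earlier results of these data known. Full values are given for the 2 genes of each step with the highest mean CPM, for every gene called in neither response or called lower, and for every gene that failed the filter. Besides these, the largest and smallest changes of each step are given, and Mcm5, Mcm6, Cdc6, Pcna and Asf1b are shown in full by choice after their values were seen. The marker lists covered hepatocytes, macrophages and Kupffer cells, monocytes and neutrophils, lymphocytes, endothelium, stellate cells, cholangiocytes and red cells. Promoter sequences come from RefSeq (GRCm38.p6); 9 of the 47 genes have no entry there. Gene ends come from GENCODE M21 (GRCm38). Alternatives were RLE factors, library totals, no filter, at least 5 CPM in 3 libraries, DESeq2 1.42.0, a replicate block, fits of the 6 libraries compared, and leaving out each library in turn.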

Additional observations from a re-analysis of the deposited data

How the results depend on the processing

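Genes called higher with injury numbered 40 in Yap/Taz KO, 32 to 43 when 1 library was left out and 38 to 43 under the other alternatives. In ctrl they numbered 39, 31 to 40 and 29 to 42. In all 19 alternatives 29 genes remained called higher in Yap/Taz KO and 28 in ctrl. All these counts include genes that passed the low-count filter only through injured libraries, such as Mcm2 and Mcm5. No count of genes that stayed called was made over all genes, so these numbers are a description only. The single call lower, Mcm10 in ctrl, gave 0 with library totals and 0 to 1 when a library was left out. Mcm10 in Yap/Taz KO turned to 0.092 with library totals (range -0.65 to 0.11 when a library was left out), and Pola2 in ctrl to 0.034 with library totals. In Yap/Taz KO over ctrl without injury, the genes called lower numbered 3 without a filter and 0 to 1 when a library was left out. For the difference between the responses 1 gene was called higher without a filter. Of 1668 refits of the 88 injury responses of single genes, 1538 kept direction and call, 101 lost the call, 26 gained it and 3 turned; the causes were not tested.

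Replicate numbers were not treated as pairs in the main fit. Correlations of deviations between libraries of the same number ran from -0.152 to 0.323, and of the 6 libraries in a comparison 0 to 4 correlated best with their own number. The knockout comparison without injury gave 0.323, 0.244 and -0.0263, and the 4 of 6. With a replicate block 38 genes were called higher in Yap/Taz KO, 38 higher and 1 lower in ctrl, and 0 in the other comparisons.

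Over all genes, counts moved by more than 1.5 times in places. Genes higher in Yap/Taz KO numbered 1013, but 1809 with library totals, 660 without Yap/Taz KO + CCl4 1 and 626 without Yap/Taz KO 2. Lower they numbered 900, against 410, 516 and 568 there, and 590 without Yap/Taz KO + CCl4 2. In ctrl 1137 were higher, but 1967 with totals and 1707 without ctrl 1, and 1291 lower, but 700 with totals. Totals shift the median log2 fold change of all genes by 0.37 in Yap/Taz KO and 0.36 in ctrl. The knockout comparisons called 0 genes, but without a filter 87 higher and 22 lower after injury and 75 and 135 without it, and by DESeq2 14 and 4, and 21 and 18. The difference gave 100 and 15 without a filter and 8 and 3 by DESeq2. Fits of 6 libraries or with a library left out gave at most 3. Low counts in uninjured libraries limit what could be seen there.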
